A study of Homo sapiens with 18 samples.

Results

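The comparison described here is the etoposide main effect: all 9 etoposide libraries against all 9 DMSO libraries of a series of 18, fitted with 1 common etoposide term, so that a shift present at every time point is estimated from the whole series. Members were chosen by the sample titles, and 18 of 18 libraries entered. The cells were hTERT RPE-1, a human retinal pigment epithelial line immortalised with telomerase, which the labels place in G0/G1. All groups shared growth in 10% serum, starvation for 48 h in 0.1% serum and the use of 10 µM triptolide, an inhibitor of TFIIH that stops transcription. The 3 etoposide groups (time points 0, 20 and 40) received 50 µM etoposide for 30 min. The 3 DMSO groups (time points 0, 20 and 40) are labelled as not treated with etoposide. Each group held 3 libraries that the labels call independent replicates, all of a single line. Replicate number was a factor of the models, so p-values measure the spread left among libraries after the fitted factors. Libraries of 1 replicate number at different time points count there as separate units. The labels give no unit for the time points and do not say whether triptolide was present at 0. The series asked how etoposide changes RNA stability and gene expression. The common term gives 1 weighted average of the etoposide effect over the 3 time points, whether or not that effect is constant.

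Etoposide traps topoisomerase II on cleaved DNA, which leaves protein-linked double-strand breaks and activates ATM and p53. Targets of p53 such as CDKN1A and BTG2, and early-response genes such as FOS, are among the first transcripts to move in damaged cells. When triptolide blocks new synthesis, levels of short-lived transcripts fall within minutes, so that a difference between arms can lie in RNA made before the block or in RNA lost after it. The common term does not separate these.

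Total counts ranged from 7957691 to 11580219 per library, and 17854 to 20410 genes had a count. Etoposide and DMSO libraries of the same number and time point formed 9 pairs, and exact sign-flip permutation tests over them (two-sided, 4 features, smallest possible p 0.00390625) gave p = 0.699 for the total count, 0.348 for genes with a count, 0.617 for the share of counts in antisense genes and 0.766 for the share in protein-coding genes, each 0.766 after Benjamini-Hochberg adjustment. The 9 pairs came from 3 replicate numbers, and these tests took them as independent. One library stood apart: DMSO replicate 2 at time point 0 had 1.42% of its counts in antisense genes, against at most 0.253% in the others. In that library BEST1, which lies opposite the ferritin gene FTH1, had 21473 counts, against at most 177 elsewhere. Of 16 pigment epithelium markers, 5 stayed under 1 CPM in all libraries (RPE65, TYR, DCT, TTR and RGR), as did 11 of 14 blood markers and 9 of 12 markers of other epithelia. Of 13 fibroblast markers, 2 stayed under 1 CPM (COL1A2 and LUM). Summed levels of the pigment epithelium markers were 1509 to 4020 CPM with DMSO (at most 2709 without the library that stood apart) and 1410 to 2454 CPM with etoposide. The summed fibroblast markers were 10640 to 12990 CPM with DMSO and 10480 to 12140 CPM with etoposide. Outside the library that stood apart, KRT8 (449 to 986 CPM), KRT18 (451.5 to 1065 CPM) and EZR (390 to 564 CPM) made up most of the first sum. VIM (9556 to 11960 CPM) made up most of the second, so the sums say little about the other markers. In bulk RNA, fewer cells of a type and less RNA per cell cannot be told apart.

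The common term called RGS2, a brake on G-protein signalling, and SNHG1, a host transcript of small nucleolar RNAs, both higher with etoposide. In all, 2 of 14186 tested genes (0.0141%) passed an adjusted p of 0.05 in edgeR's quasi-likelihood test with Benjamini-Hochberg adjustment, and 0 were lower. At an unadjusted p under 0.05 stood 765 genes (5.39%), 406 higher and 359 lower. With 1 library left out that count ranged from 500 of 14475 genes (without etoposide replicate 2 at time point 0) to 1526 of 14414 (without DMSO replicate 1 at time point 20), and it was 1231 of 14478 without etoposide replicate 2 at time point 20. DESeq2 called 7 genes and limma-voom 0. The etoposide contrasts at single time points share their libraries with the common term. They called 0 genes at time point 0 (882, or 6.22%, at an unadjusted p under 0.05), 0 at time point 20 (355, or 2.5%) and 1 at time point 40 (0.00705%), BTG2 (498, or 3.51%, at an unadjusted p under 0.05). The interaction, which asks whether the etoposide effect differs among the time points, called 0 genes in edgeR and 0 in limma-voom (359 and 402 at an unadjusted p under 0.05). RGS2 and SNHG1 did not pass at any single time point (at time point 40, edgeR adjusted p 0.0501 and 0.44).

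Pooling the time points narrowed the estimates, and most of them lay near 0. Over the 10814 genes with a mean of at least 5 CPM, the median SE of the log2 difference was 0.0773 for the common term and 0.134 at each time point. The median absolute log2 difference was 0.0599 for the common term and 0.0987, 0.0925 and 0.0951 at time points 0, 20 and 40. Of the same genes, 97.6% had a common-term estimate within 0.25 of 0 on the log2 scale. In 9 of 9 pairs 29 genes (0.204%) stood higher with etoposide and 31 genes (0.219%) lower, together 60 genes (0.423%). Random and independent signs in 9 pairs would give a share of 0.00390625 for both directions together. A count of 9 of 9 pairs therefore does not by itself set a gene apart. The 29 had a median log2 difference of 0.24, and 2 of them had an interaction p under 0.05.

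RGS2, at 1:192809039-192812283 on the plus strand of GRCh38 (ENSG00000116741, protein coding), shortens signalling from receptors coupled to Gq by speeding GTP hydrolysis. At time point 0 its normalised read count was 5.29, 6.06 and 1.71 CPM in DMSO replicates 1, 2 and 3 and 7.74, 8.23 and 2.21 CPM in the etoposide replicates. At time point 20 it was 4.40, 6.11 and 1.74 CPM with DMSO and 8.52, 9.90 and 2.86 CPM with etoposide. At time point 40 it was 2.01, 2.64 and 0.527 CPM with DMSO and 5.24, 6.37 and 1.22 CPM with etoposide. The arms overlapped, and every replicate 3 library lay below the replicate 1 and 2 libraries of its group. In each of the 9 pairs the etoposide library was the higher. RGS2 was 1.75-fold higher with etoposide than with DMSO by the common term (log2 difference 0.81, SE 0.13, 95% interval 0.53 to 1.09). Its adjusted p was 0.0453 by edgeR with Benjamini-Hochberg adjustment. The log2 difference was 0.47 (SE 0.20), 0.79 (SE 0.20) and 1.28 (SE 0.23) at time points 0, 20 and 40, and the interaction had an unadjusted p of 0.0494 in edgeR (adjusted p 0.991). Within replicates 1, 2 and 3 the mean pair difference was 0.86, 0.73 and 0.54. The raw counts behind these values were low, with 5 in the lowest library and 96 in the highest.

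The call of RGS2 was marginal. The log2 difference stayed between 0.631 and 1.0 in 36 alternative settings, and the gene was called in 11 of them (adjusted p 0.00191 to 1 over all 36). With a single library left out it was called in 4 of 18 cases, namely DMSO replicate 3 at time points 0 and 20, etoposide replicate 2 at 0 and etoposide replicate 3 at 40, and the call was lost without any of the other 14. Without DMSO replicate 2 at time point 0, the library that stood apart, the log2 difference was 0.84 and the edgeR adjusted p 0.0649. With no replicate block in the model it was 0.84, with an SE of 0.40.

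SNHG1, at 11:62851988-62855914 on the minus strand (ENSG00000255717, a processed transcript), carries small nucleolar RNAs in its introns and is a target of nonsense-mediated decay. At time point 0 it stood at 118, 123 and 95.9 CPM in DMSO replicates 1, 2 and 3 and at 141, 155 and 131 CPM with etoposide. At time point 20 the values were 100.9, 95.6 and 78.4 CPM with DMSO and 120, 145 and 80.1 CPM with etoposide. At time point 40 they were 60.0, 62.5 and 42.0 CPM with DMSO and 90.4, 91.9 and 53.7 CPM with etoposide. The arms were separate at time point 0 alone, and the etoposide library was the higher in 9 of 9 pairs. SNHG1 was 1.31-fold higher with etoposide than with DMSO by the common term (log2 difference 0.38, SE 0.07, 95% interval 0.25 to 0.52). Its adjusted p was 0.0453 by edgeR with Benjamini-Hochberg adjustment. The estimates at time points 0, 20 and 40 were 0.35 (SE 0.11), 0.30 (SE 0.12) and 0.51 (SE 0.12), with an unadjusted interaction p of 0.431 in edgeR. The mean pair difference was 0.36, 0.49 and 0.28 within replicates 1, 2 and 3. The span of SNHG1 on the same strand holds the genes SNORD22, SNORD25, SNORD26, SNORD27, SNORD28 and SNORD30, and how the counting split shared reads is not given in the sources used here, so its value is uncertain to that extent. Its log2 difference stayed between 0.327 and 0.455 in the 36 alternative settings and was called in 10 of them (adjusted p 0.000378 to 1). With a single library left out it was called in 4 of 18 cases (DMSO replicate 3 at time points 0 and 20 and etoposide replicate 3 at 20 and 40), and the call was lost without any of the other 14. Without DMSO replicate 2 at time point 0 it was 0.38, with an edgeR adjusted p of 0.133.

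BTG2, at 1:203305491-203309602 on the plus strand (ENSG00000159388, protein coding), is a p53 target that slows proliferation and brings the CCR4-NOT deadenylase to mRNAs. At time point 0 it stood at 4.36, 4.0 and 4.27 CPM in DMSO replicates 1, 2 and 3 and at 6.23, 10.9 and 5.18 CPM with etoposide. At time point 20 the values were 2.20, 3.24 and 2.32 CPM with DMSO and 9.07, 9.18 and 2.99 CPM with etoposide. At time point 40 they were 0.192, 0.880 and 0.422 CPM with DMSO, where replicate 1 had 2 raw counts, and 7.64, 6.26 and 2.21 CPM with etoposide. Etoposide libraries were the higher in 9 of 9 pairs, and the arms did not overlap at time points 0 and 40. BTG2 had the common log2 difference 1.55 (SE 0.30), but did not pass (adjusted p 0.233 by edgeR with Benjamini-Hochberg adjustment). Its estimates rose over the time points, with 0.75 (SE 0.32), 1.40 (SE 0.34) and 3.37 (SE 0.45) at 0, 20 and 40. The interaction had an unadjusted p of 0.000604 in edgeR but was not called (adjusted p 0.991). From time point 0 to 40 its group mean fell in both arms, from 4.21 to 0.498 CPM with DMSO and from 7.45 to 5.37 CPM with etoposide. At time point 40 BTG2 was higher with etoposide than with DMSO and was the only gene of 14186 called there (edgeR adjusted p 0.0029). That call was made again without replicate 3, and was lost without replicate 1, without replicate 2 and with no replicate block, where 0 genes were called at time point 40 (205, 1177 and 139 at an unadjusted p under 0.05). Within replicates 1, 2 and 3 the mean pair difference was 1.95, 1.67 and 0.71. DESeq2 called the common term (adjusted p 0.0172).

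**Figure D1:**
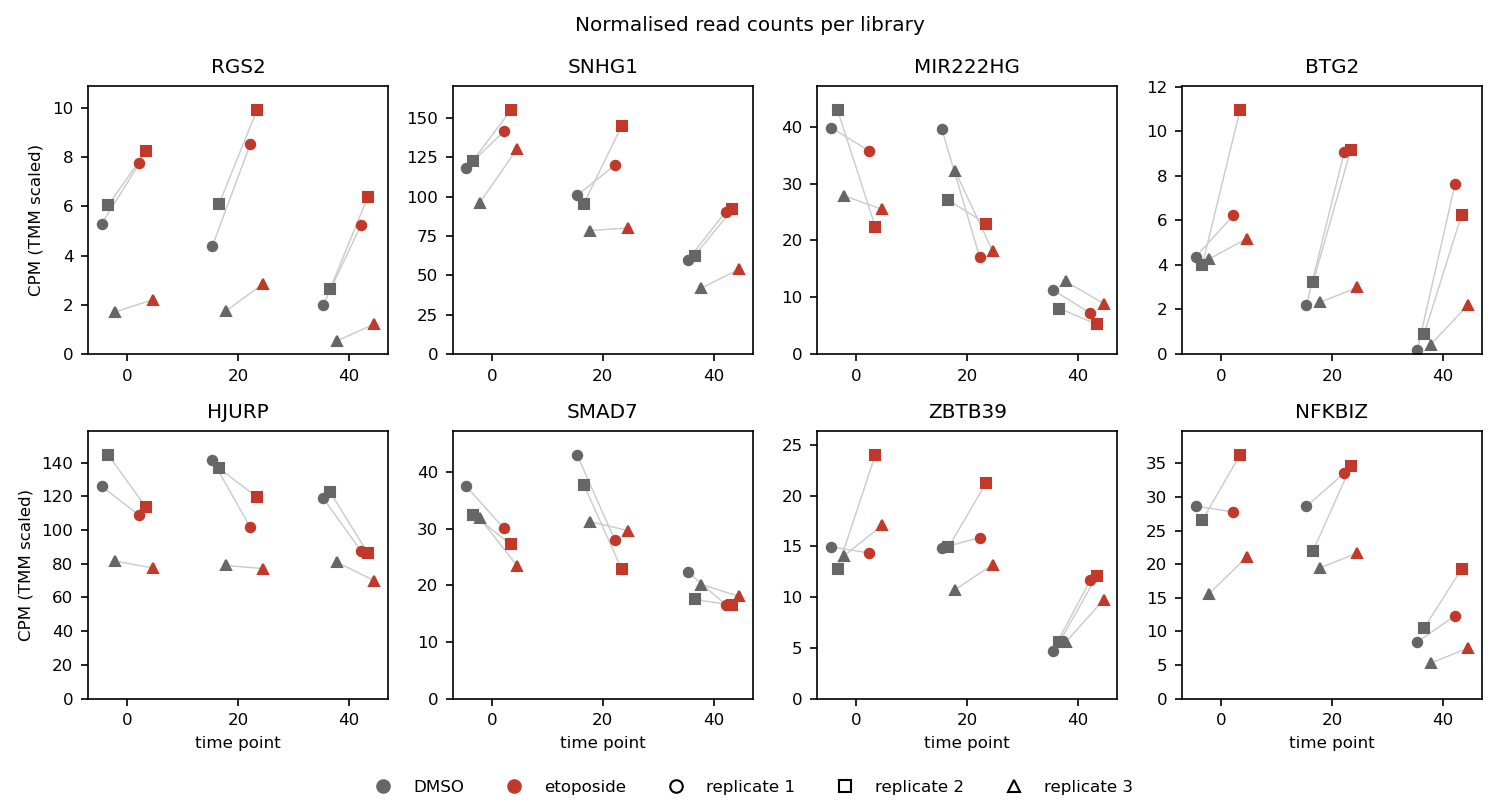
Normalised read counts (CPM with TMM scaling, linear axis) in each of the 18 libraries for 8 genes against time point, with grey for DMSO, red for etoposide, a marker shape for each replicate number and a line joining each pair. RGS2, SNHG1 and BTG2 have all 9 lines rising towards etoposide, while MIR222HG, HJURP and SMAD7 have all 9 falling.

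The promoters of RGS2, SNHG1 and BTG2 are printed because these are the genes called for the common term or at a single time point. The sequences are the 150 bases 5′ of the RefSeq transcript start (GRCh38.p14), each read 5′ to 3′ on the gene's strand, with capitals for CCAAT and GC box (GGGCGG) matches on either strand. The windows are chr1:192808889-192809038 (plus) for RGS2, chr11:62855886-62856035 (minus) for SNHG1 and chr1:203305369-203305518 (plus) for BTG2.
RGS2: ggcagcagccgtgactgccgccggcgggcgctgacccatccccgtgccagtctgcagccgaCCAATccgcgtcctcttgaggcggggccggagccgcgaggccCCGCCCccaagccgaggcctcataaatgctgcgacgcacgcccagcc
SNHG1: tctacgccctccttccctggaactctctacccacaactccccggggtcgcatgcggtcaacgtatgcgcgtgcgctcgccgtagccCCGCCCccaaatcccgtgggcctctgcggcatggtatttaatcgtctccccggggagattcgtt
BTG2: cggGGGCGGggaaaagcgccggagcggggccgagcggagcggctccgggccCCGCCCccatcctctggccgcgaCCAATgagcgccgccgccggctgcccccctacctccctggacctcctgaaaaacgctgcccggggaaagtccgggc
Over the 250 bases 5′ of the start, RGS2 held a CCAAT box 89 bases upstream and a GC box 47 bases upstream. SNHG1 held a GC box 64 bases upstream and no CCAAT box. BTG2 held a CCAAT box 76 bases upstream and GC boxes 168, 147 and 99 bases upstream. Such letters are common: of 35116 promoters of the same length, 32% held CCAAT and 42.6% held GGGCGG on either strand. None of the 3 windows held the AP-1 letters TGANTCA (6.57% of promoters), the CRE TGACGTCA (1.65%), the E-box CACGTG (6.34%), TATAAA (10.7%) or the NF-kB motif (0.527%), each searched on both strands. A match is a description of the letters, and an absent match says only that they are not in the window.

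TOB1 and TOB2, relatives of BTG2 named as members of the mRNA decay list, had small positive estimates at each time point. TOB1, which recruits deadenylases and restrains proliferation, ranged from 18.4 to 29.5 CPM with DMSO (median 24.3) and from 21.4 to 37.4 CPM with etoposide (median 29.2). The arms of TOB1 overlapped over all libraries but not within 2 of the 3 time points, and etoposide was the higher in 8 of 9 pairs. Its log2 difference was 0.29 (SE 0.08), with 0.36, 0.26 and 0.26 at time points 0, 20 and 40. TOB2, its close relative, ranged from 30.2 to 43.2 CPM with DMSO (median 36.3) and from 33.8 to 49.2 CPM with etoposide (median 40.5). In 9 of 9 pairs TOB2 was the higher with etoposide. Its log2 difference was 0.20 (SE 0.06), with 0.19, 0.19 and 0.21 at the 3 time points. Neither passed (adjusted p 0.606 for TOB1 and 0.857 for TOB2 by edgeR with Benjamini-Hochberg adjustment).

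Other genes of the smallest p values that stood higher without passing were FAM53C, ABCC5, FBXO41, ZBTB39 and NFKBIZ. FAM53C had 53.6 to 67.6 CPM with DMSO (median 56.1) and 58.9 to 78.2 CPM with etoposide (median 71.4). Its log2 difference of 0.25 (SE 0.06) was nearly the same at each time point (0.27, 0.22 and 0.24), positive in 9 of 9 pairs. ABCC5, an exporter of cyclic nucleotides, had 35.6 to 48.2 CPM with DMSO (median 43.5) and 47.2 to 57.4 CPM with etoposide (median 49.3). Its arms overlapped at the edge but were separate within each of the 3 time points. The log2 difference of ABCC5 was 0.24 (SE 0.06), positive in 9 of 9 pairs. FBXO41, an F-box protein of ubiquitin ligases, had a log2 difference of 0.31 (SE 0.08), positive in 9 of 9 pairs. All 3 genes had an adjusted p of 0.606 in edgeR with Benjamini-Hochberg adjustment. ZBTB39, a zinc finger protein, and NFKBIZ, a nuclear regulator of NF-kB, leaned towards the last time point. ZBTB39 had estimates of 0.38, 0.31 and 1.08, with an unadjusted interaction p of 0.014 in edgeR, and NFKBIZ of 0.27, 0.33 and 0.67. The common log2 difference was 0.55 (SE 0.12) for ZBTB39 and 0.41 (SE 0.10) for NFKBIZ, each positive in 8 of 9 pairs. Their edgeR adjusted p was 0.275 and 0.606, whereas ZBTB39 was called by DESeq2 (adjusted p 0.0202) and by edgeR with no filter on low counts (adjusted p 0.0228).

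On the lower side no gene passed, and the smallest p values belonged to MIR222HG, HJURP and SMAD7, each lower with etoposide in 9 of 9 pairs. MIR222HG, the host transcript of the microRNAs miR-221 and miR-222 at X:45745211-45770274 (minus strand, ENSG00000270069), ranged from 8.0 to 42.9 CPM with DMSO (median 27.8) and from 5.22 to 35.8 CPM with etoposide (median 18.1). Its log2 difference was -0.58 (SE 0.12), with -0.42, -0.75 and -0.59 at time points 0, 20 and 40. Its group means were 36.8, 33.0 and 10.7 CPM with DMSO and 27.9, 19.4 and 7.09 CPM with etoposide at time points 0, 20 and 40, and the arms were separate at time point 20 only. HJURP, the chaperone that loads the centromere histone CENP-A (2:233833416-233854566, minus strand, ENSG00000123485), ranged from 79.0 to 144 CPM with DMSO (median 123) and from 69.9 to 120 CPM with etoposide (median 87.5). Its log2 difference was -0.28 (SE 0.06), with -0.37, -0.35 and -0.11 within replicates 1, 2 and 3, and its arms overlapped at every time point. It overlaps MROH2A on the other strand. SMAD7, an inhibitor of TGF-beta signalling (18:48919853-48952052, minus strand, ENSG00000101665), ranged from 17.5 to 43.0 CPM with DMSO (median 31.9) and from 16.5 to 30.0 CPM with etoposide (median 23.4). Its log2 difference was -0.35 (SE 0.07), and its arms were separate within 2 of the 3 time points. All 3 had an adjusted p of 0.233 in edgeR with Benjamini-Hochberg adjustment, whereas DESeq2 called each of them (adjusted p 0.00927 for MIR222HG, 0.00892 for HJURP and 0.0202 for SMAD7). SPECC1L, a cytoskeletal crosslinker, was also lower in 9 of 9 pairs, with a log2 difference of -0.20 (SE 0.06).

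**Figure D2:**
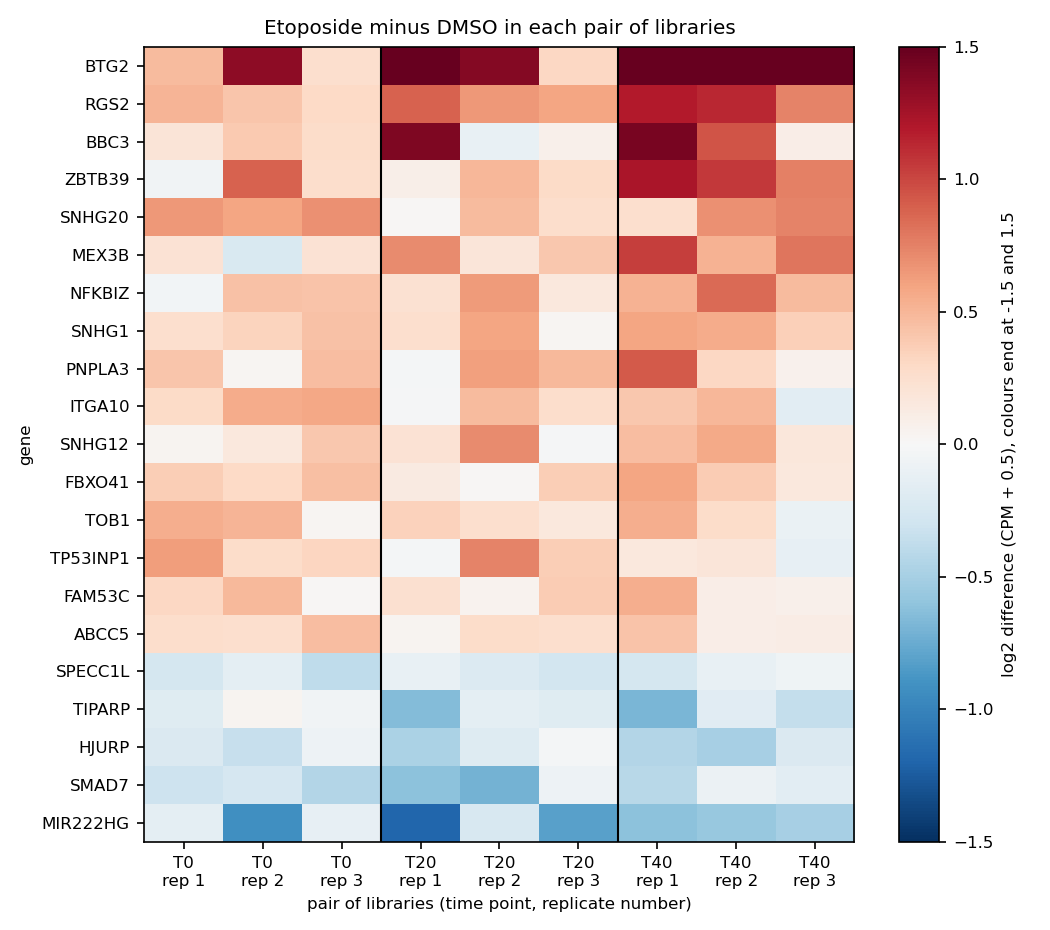
Log2 difference (CPM + 0.5), etoposide minus DMSO, in each of the 9 pairs of libraries for 21 genes, with red for higher and blue for lower with etoposide and colours ending at -1.5 and 1.5. BTG2 darkens towards time point 40, while FAM53C and ABCC5 keep pale red shades in the 3 blocks of time points.

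**Figure D3:**
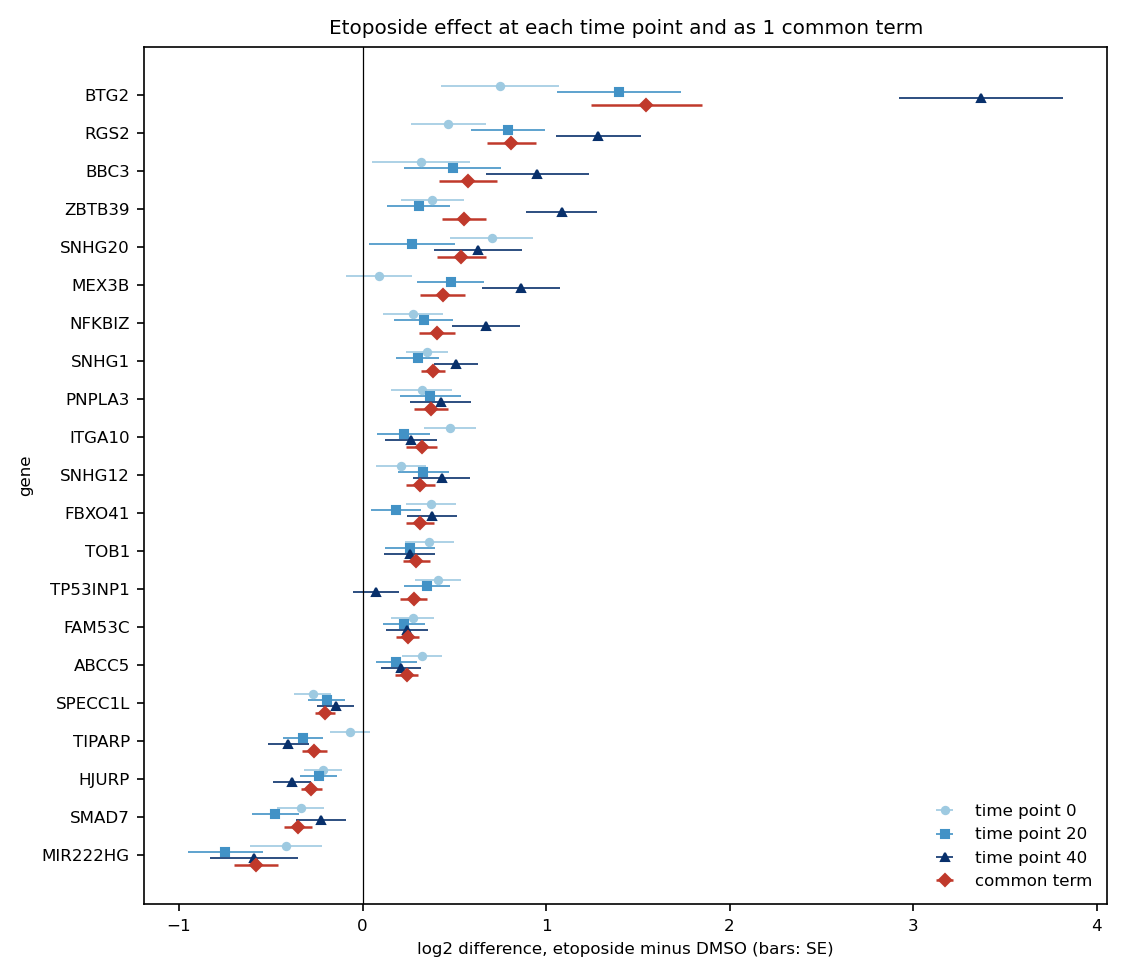
Log2 difference, etoposide minus DMSO, with SE bars for the same 21 genes at each time point (blue) and for the common term (red diamonds), from edgeR models of all 18 libraries. The bars of the common term are shorter, and for BTG2 the time points spread from 0.75 to 3.37 around a common 1.55.

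The targets of etoposide and the adenosine methylation enzymes named in the series title showed small common-term values. TOP2A, the proliferation-linked topoisomerase II, ranged from 331 to 498 CPM with DMSO (median 412) and from 362 to 511 CPM with etoposide (median 385), with a log2 difference of -0.02 (SE 0.08, 95% interval -0.18 to 0.15). TOP2B, the isoform of resting cells, ranged from 117 to 188 CPM with DMSO (median 161) and from 129 to 186 CPM with etoposide (median 149.4), with a log2 difference of 0.01 (SE 0.07, 95% interval -0.13 to 0.16). METTL3, the catalytic methyltransferase, had a log2 difference of 0.03 (SE 0.06, 95% interval -0.09 to 0.16), and its partner METTL14 of 0.08 (SE 0.07, 95% interval -0.07 to 0.23). The arms of these genes overlapped. Under scaling to housekeeping and ribosomal protein genes TOP2A was 0.046, beside a median of 0.062 over all tested genes. Of the 23 genes that write, remove or read N6-methyladenosine, 11 were above 0, with a median log2 difference of -0.011. Over all tested genes 6683 of 14186 were above 0, with a median of -0.0073. At an unadjusted p under 0.05 there were 0 higher members and 1 lower, WTAP, the adaptor of the methyltransferase complex (-0.15, SE 0.07). Those shares compare with 2.86% higher and 2.53% lower over all tested genes. Of 21 topoisomerase and adduct repair genes 7 were above 0 (median -0.016), and none reached an unadjusted p under 0.05 in edgeR. Of 38 double-strand break repair genes 12 were above 0 (median -0.014), and 1 reached it, TP53BP1 (0.14, SE 0.07), a sensor of broken ends.

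Damage and early-response lists held members on both sides of 0, and none of their members was called for the common term. Of 38 tested p53 targets 21 were above 0, with a median log2 difference of 0.025 (-0.013, 0.089 and 0.072 at time points 0, 20 and 40). Within replicates 1, 2 and 3 the median was -0.017, 0.12 and 0.00027, so replicate 2 held the largest value. Beside 2.86% higher and 2.53% lower over all tested genes, 8 of the 38 were higher and 0 lower at an unadjusted p under 0.05. Beside BTG2 these included BBC3, a BH3-only protein of apoptosis (0.57, SE 0.16), TP53INP1, a stress-induced p53 cofactor (0.28, SE 0.08), and CDKN1A, the CDK inhibitor p21 (0.15, SE 0.07). BBC3 ranged from 2.39 to 7.73 CPM with DMSO (median 4.27) and from 3.77 to 9.26 CPM with etoposide (median 7.12), higher in 8 of 9 pairs. For CDKN1A the estimates at time points 0, 20 and 40 were -0.11, 0.21 and 0.34. MDM2, the ubiquitin ligase that limits p53, had -0.13 (SE 0.08).

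Of 55 early-response genes 28 were above 0, with a median of 0.0039 for the common term and of -0.039, -0.016 and 0.28 at time points 0, 20 and 40. At an unadjusted p under 0.05 were 10 higher and 1 lower (2.86% and 2.53% over all tested genes). The lower gene was FOSL1 (-0.20, SE 0.06), an AP-1 subunit. FOS itself had -0.03 (SE 0.20), JUN -0.09 (SE 0.09) and MYC -0.15 (SE 0.09). SNAI1, a repressor of epithelial genes, had 0.14, 0.29 and 1.38 at the time points and 0.51 (SE 0.16) in common, and ATF3, a stress-induced factor, had 0.25 (SE 0.12). In a setting chosen after the data were seen, DMSO replicate 2 of time point 0 and etoposide replicate 2 of time point 20 were left out. There 37 of 56 early-response genes were above 0, with a median of 0.049, beside a median of -0.0053 over all tested genes.

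Of 42 genes with AU-rich elements 24 were above 0 (median 0.014, and -0.041, -0.011 and 0.19 at time points 0, 20 and 40). Their median was 0.0074, 0.11 and -0.0037 within replicates 1, 2 and 3. Beside 2.86% higher and 2.53% lower over all tested genes, 5 of the 42 were higher and 0 lower at an unadjusted p under 0.05. They included ZFP36, a factor that binds such elements (0.41, SE 0.17), KLF4 (0.42, SE 0.15) and the kinase PIM1 (0.25, SE 0.08). Of 31 NF-kB targets 20 were above 0 (median 0.024, and 0.0092, -0.016 and 0.12 at the time points), with 1 higher and 1 lower. The median of these targets was -0.0018, 0.17 and 0.024 within replicates 1, 2 and 3. NFKBIA, the inhibitor of NF-kB, had 0.31 (SE 0.10), from 0.03 at time point 0 to 0.71 at 40. Of 25 integrated stress response genes 11 were above 0 (median -0.017, and -0.078, -0.032 and 0.083 at the time points), with 3 higher and 0 lower, among them SLC7A11, a cystine transporter (0.23, SE 0.08), and DDIT4, an inhibitor of mTORC1 (0.28, SE 0.10 and 0.27, 0.29 and 0.28 at the time points).

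Small RNA host genes included 1 called member, SNHG1, among 26 tested, beside 0.0141% called over all tested genes. Of these 16 were above 0, with a median of 0.014, and 6 were higher and 1 lower at an unadjusted p under 0.05 (2.86% and 2.53% over all tested genes). SNHG20 ranged from 2.32 to 4.95 CPM with DMSO (median 3.06) and from 3.24 to 7.33 CPM with etoposide (median 4.58). Its log2 difference was 0.54 (SE 0.13, edgeR adjusted p 0.606), positive in 9 of 9 pairs. SNHG12 ranged from 8.33 to 31.4 CPM with DMSO (median 19.5) and from 9.41 to 37.3 CPM with etoposide (median 26.1), with a log2 difference of 0.32 (SE 0.08, edgeR adjusted p 0.606), positive in 8 of 9 pairs. Both overlap small RNA genes on the same strand, and SNHG12 also overlaps TRNAU1AP on the other strand. The median of the list was 0.067, -0.0023 and -0.022 within replicates 1, 2 and 3, so the list as a whole did not hold one sign.

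By the common term, the medians of the respiratory chain, ribosomal protein and proliferation lists lay below that of all tested genes, and those of the matrix and splicing lists above it, though not within every replicate number or time point. Of 47 nuclear genes of the respiratory chain 4 were above 0 (median -0.086). Of 77 ribosomal protein genes 2 were above 0 (median -0.075), and of 34 genes of DNA replication and mitosis 2 (median -0.075). Under scaling to housekeeping and ribosomal protein genes these became 20 of 47, 40 of 77 and 17 of 34, with medians of -0.012, 0.0014 and -0.0044. The median of all tested genes moved from -0.0073 to 0.062, which is above each of these list medians. Ribosomal protein genes are part of that scaling set, so their median near 0 there follows from the scaling and tests nothing. Of 26 extracellular matrix genes 24 were above 0 (median 0.075), and of 22 CLK and SR splicing genes 16 (median 0.060). Within replicates 1, 2 and 3 the medians were -0.020, -0.11 and -0.075 for the respiratory chain, 0.00087, -0.094 and -0.099 for ribosomal proteins and -0.13, -0.035 and -0.047 for proliferation. The matrix list had 0.11, 0.18 and -0.017 and the splicing list -0.022, 0.14 and 0.021. By time point, proliferation had -0.17, 0.014 and -0.080 and splicing 0.072, 0.084 and -0.020 at 0, 20 and 40. At an unadjusted p under 0.05 stood 2.86% of all tested genes as higher and 2.53% as lower. The proliferation list held 0 higher and 4 lower members at that limit. Among these 4 were CENPA (-0.25, SE 0.08), CCNB1 (-0.17, SE 0.06) and BIRC5 (-0.15, SE 0.06). The respiratory chain list also held 0 higher and 4 lower, among them COX6C (-0.19, SE 0.08), NDUFA8 (-0.18, SE 0.08) and COX7C (-0.17, SE 0.07). The matrix list held 2 higher and 0 lower, FN1 (fibronectin, 0.22, SE 0.08) and TNC (tenascin C, 0.18, SE 0.07). POLR2A, the largest subunit of RNA polymerase II, had 0.29 (SE 0.09), and POLR2J, one of its smallest, -0.26 (SE 0.09).

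**Figure D4:**
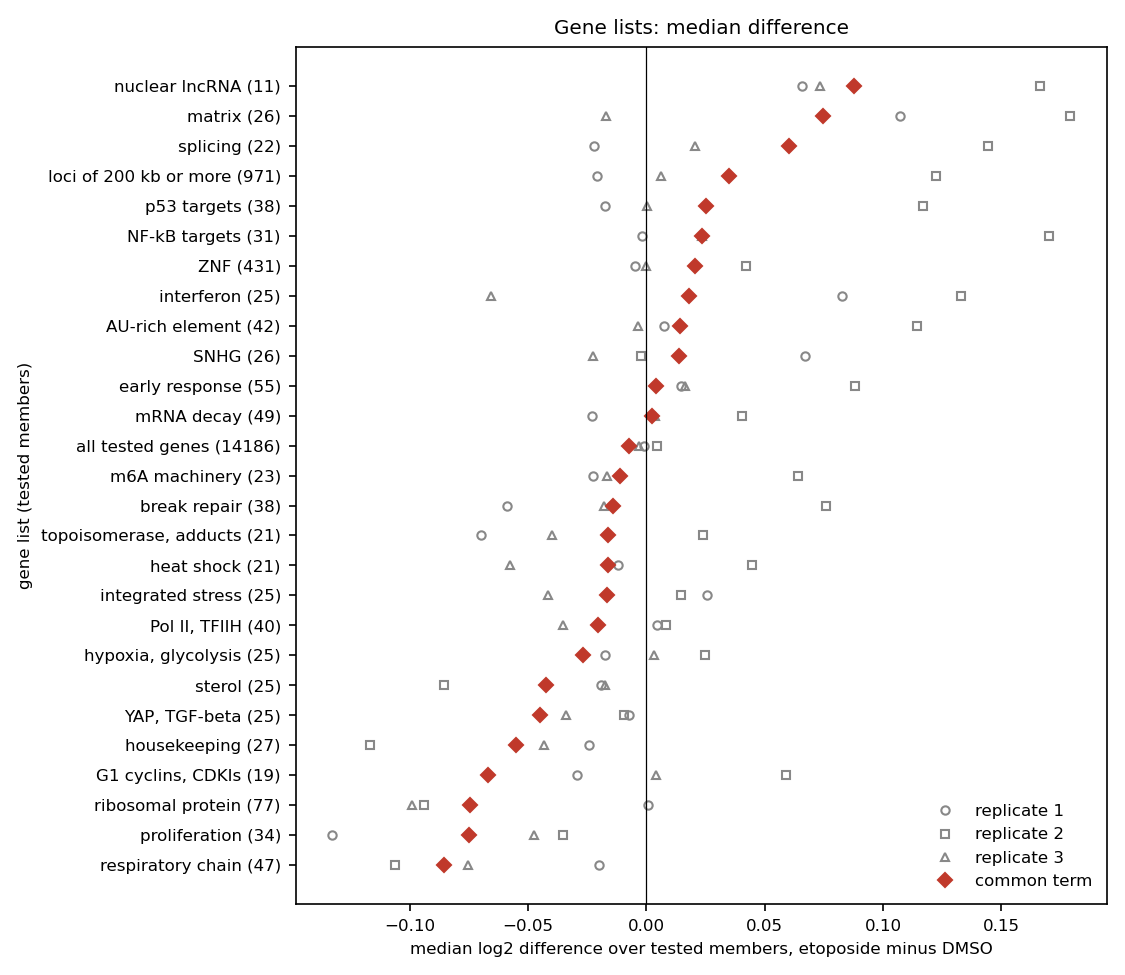
Median log2 difference, etoposide minus DMSO, over the tested members of each gene list (number in brackets), with red diamonds for the common term and open symbols for the mean pair difference within each replicate number. Red diamonds run from -0.086 (respiratory chain) to 0.088 (nuclear long noncoding RNAs), and the open symbols reach from -0.13 to 0.18.

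Over protein-coding genes the common-term estimates rose with exon length. When the protein-coding genes were cut into quartiles of 3044 or 3045 genes by exon length, the median log2 difference was -0.056, -0.017, 0.0069 and 0.039 from the shortest to the longest, and 26.5%, 41.4%, 53.2% and 67.6% of the genes were above 0. The difference between the longest and the shortest quartile was not the same in all pairs. It was 0.079, 0.276 and 0.109 in replicates 1, 2 and 3 at time point 0. At time point 20 it was -0.251, 0.444 and 0.108, and at time point 40 it was 0.188, -0.0958 and -0.0705. It was therefore negative in 3 of 9 pairs, and the pair of replicate 2 at time point 20 had the largest value. The median exon length was 2.65 kb in the respiratory chain list, 3.11 kb in the ribosomal protein list and 3.94 kb in the proliferation list, against 8.78 kb in the matrix list and 4.80 kb over all tested genes. Some other lists did not follow length. The p53 targets (3.81 kb) and small RNA host genes (3.08 kb) had medians above that of all tested genes (0.025 and 0.014). The N6-methyladenosine genes (6.64 kb) and the topoisomerase and adduct repair genes (6.16 kb) had medians below it (-0.011 and -0.016). After the median of genes of like exon length was subtracted, the list medians were -0.056 for the respiratory chain, -0.052 for ribosomal proteins, -0.051 for proliferation and 0.067 for the matrix. What part of the list values belongs to length was not tested beyond this. Of 971 protein-coding genes with loci of 200 kb or more, 617 were above 0 (median 0.035), and the median after the same subtraction was 0.0061. Without DMSO replicate 2 at time point 0 the list medians were -0.079 for the respiratory chain, -0.074 for ribosomal proteins, -0.074 for proliferation, 0.060 for the matrix, 0.053 for splicing and 0.016 for the long loci. Without replicate 2 altogether they were 0.0031 for splicing, -0.018 for p53 targets and -0.0073 for the long loci.

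**Figure D5:**
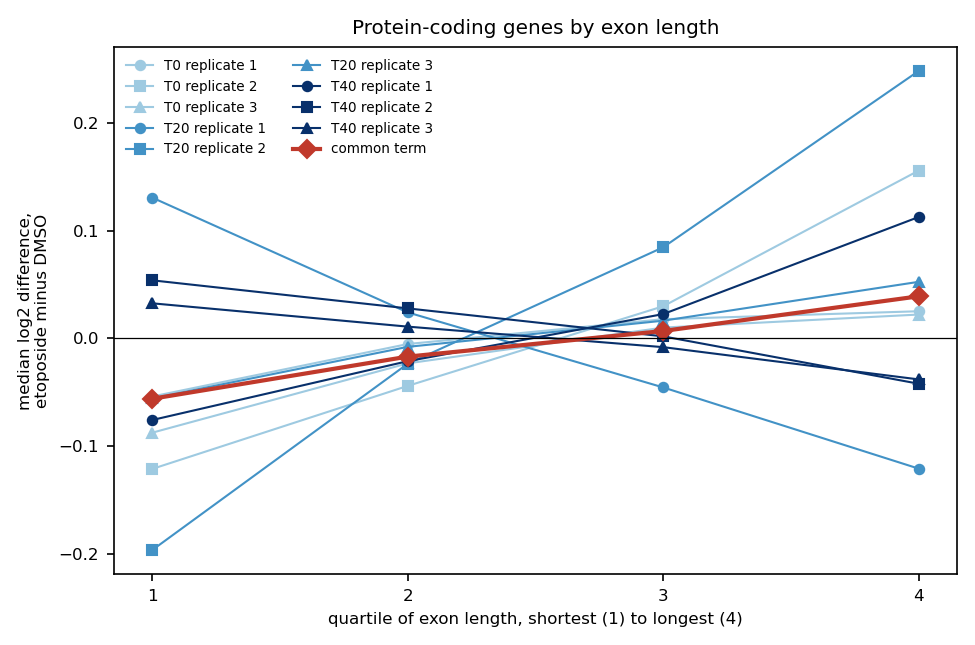
Median log2 difference, etoposide minus DMSO, of protein-coding genes in quartiles of exon length from shortest (1) to longest (4), with thin lines for the 9 pairs and a thick red line for the common term. The red line runs from -0.056 to 0.039, and 3 of the 9 pairs run downwards.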

How the data were processed

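The authors deposited 1 file of raw read counts per gene for each of the 18 libraries, with no normalization. Per the labels' protocols, RNeasy purification and TURBO DNA-free treatment preceded TruSeq Stranded mRNA library preparation. Per the submitters' processing notes, the tools were bcl2fastq, HISAT2 and featureCounts, with GRCh38 (hg38). The sources used here do not give tool versions, annotation release, strand setting or treatment of multi-mapping reads, and shared or opposite-strand reads of overlapping genes could be assigned either way. Of 58051 gene IDs, 57447 matched GENCODE 29. The 37 mitochondrial genes had 0 counts, and 44 protein-coding genes above 5 CPM in replicates 1 and 2 had 0 counts in replicate 3.

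Counts were tested with edgeR 4.0.16 (R 4.3.3) by the robust quasi-likelihood test, with TMM factors (0.978 to 1.02) and the default filter by group, which kept 14186 genes holding 99.84% of counts. The model held replicate number, time point and 1 etoposide term. A second model of 6 groups with replicate number gave the effects at single time points and the interaction with 2 degrees of freedom. Calls were made at a Benjamini-Hochberg adjusted p below 0.05 over all tested genes. CPM are normalised read counts, and pair differences use log2(CPM + 0.5). DESeq2 1.42.0 and limma 3.58.1 served as alternatives, beside other scalings, filters and blocks, each replicate number, library and time point left out, and 1 pair of libraries left out after the data were seen.

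Deviations from the group means were shared by libraries of the same number (45 pairs, correlations 0.336 to 0.918 against a minimum of 0.1, with all 18 libraries closest to their own number), so the numbers from the labels were used as a block. No libraries of the same group were duplicates (chi-square per degree of freedom 9.094 or more between replicates). Libraries of different groups were not compared in this way. Members and gene lists were chosen with earlier results of these data known. Genes were named if called, if among the smallest p values with a mean of 5 CPM or more (up to 20 in all), if among the 3 smallest p values of a list, or if fixed as check genes (FOS, JUN, MYC, CDKN1A, MDM2, BTG2, METTL3, METTL14, TOP2A and TOP2B). CCAAT and GC boxes were added to the motif search after 5 motifs had been searched. RefSeq promoters were found for 19 of 21 genes looked up. The fitting scripts were tested on simulated data.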

Additional observations from a re-analysis of the deposited data

Results flagged for a closer look

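In 72 sets of 9 values, 9 had a highest or lowest value set apart from the nearest by more than the Dixon limit, which chance gives in about 1 of 20 sets. Among the DMSO libraries, replicate 2 at time point 0 had 1.421% of counts in antisense genes, beside 0.2467% in the next library, and 97.29% in protein-coding genes, beside 98.22%. The other 7 were log2 pair differences, etoposide minus DMSO. The pair of replicate 1 at time point 40 stood at 1.742 for ZFP36 (next 0.5791), at -0.7712 for WTAP (next -0.2565) and at 0.4128 for METTL3 (next 0.08934). The pair of replicate 2 at time point 20 stood at 0.5726 for METTL14 (next 0.1951), at 0.6276 for TOP2A (next 0.08605) and at 0.6189 for TOP2B (next 0.06961). ATF3 stood at -0.7461 in the pair of replicate 1 at time point 0, its only negative pair.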

How the results depend on the processing

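The 2 calls rested on close margins. For the common term, edgeR with another setting called 2 genes with DESeq2 size factors, with total library size and with a filter of 1 CPM in 9 libraries, 1 (RGS2) under scaling to housekeeping and ribosomal protein genes, 14 (3 higher, 11 lower) with no filter on low counts, 0 without robust estimation (787 at an unadjusted p under 0.05) and 4 (BTG2, RGS2, SNHG1 and ZBTB39) as the mean of the 3 effects in the 6-group fit. DESeq2 called 7 and limma-voom 0 (822 at an unadjusted p under 0.05). Without the replicate block 0 genes were called (262 at an unadjusted p under 0.05), and with the replicate block by time point 0 (661). Leaving out replicate 1, 2 or 3, time point 0, 20 or 40, or DMSO replicate 2 of time point 0 together with etoposide replicate 2 of time point 20 gave 0 calls each (459 to 1063 at an unadjusted p under 0.05 with a replicate number left out). Single libraries left out gave 0 to 4 calls: 4 without DMSO replicate 3 at 0, 2 without DMSO replicate 3 at 20 or etoposide replicate 3 at 40, 1 without etoposide replicate 2 at 0 (RGS2) or etoposide replicate 3 at 20 (SNHG1), and 0 in the other 13 cases. The cause of these changes was not tested. At time points 0, 20 and 40, leaving out a replicate number gave 0 to 2, 0 to 1 and 0 to 1 calls (BTG2 at 40 without replicate 3 only), and the fit without the replicate block gave 0 at each. The interaction called 0 genes with no replicate block, with limma-voom and with any replicate number left out.

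Among 64 named genes, 2211 values kept their direction and side of the threshold, 51 lost a call, 10 gained one and 32 changed sign, in the 7 genes given next. FOS turned to 0.043 under housekeeping scaling (median of all tested genes 0.062), 0.026 with limma-voom, 0.080 without the replicate block, 0.012 with the block by time point, 0.015 as the mean of 3 effects, 0.054 without time point 0 and 0.057 without time point 20, and ranged from -0.21 to 0.15 with a replicate or library left out. TOP2A turned to 0.046 under housekeeping scaling and 0.037 without time point 40 (range -0.12 to 0.076). TOP2B turned to -0.043 without time point 20 and -0.075 without the 2 libraries left out together (range -0.10 to 0.072). METTL3 turned to -0.013 without time point 40 (range -0.0061 to 0.057), TOP1 ranged from -0.0066 to 0.14, and without time point 0 JUN turned to 0.045 (range -0.16 to -0.027) and MYC to 0.011 (range -0.22 to -0.060). For gene lists, 889 medians moved less than the spread between replicate numbers and 47 moved more. At this depth the common term had a median SE of 0.0773, so shifts of that size could not be told from 0.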
